A study of Mus musculus with 8 samples.

Results

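The change between 6 h and 24 h of G-CSF was followed in 32Dcl3, a line of mouse myeloid progenitors that needs IL-3 to grow and turns toward neutrophils in G-CSF. The 2 arrays at 24 h were set against the 2 arrays at 6 h, paired by vector, so that 4 of the 8 arrays of the series carry the difference. The 4 groups were ASXL1-MT cells (the retroviral vector pMYs-FLAG-ASXL1-MT-IG, FLAG-tagged mutant ASXL1) at 24 h and at 6 h, and mock cells (the empty vector pMYs-IG) at 24 h and at 6 h. The cells in IL-3 and at 2 h of each vector gave the starting values. All groups share the line and a vector of the same backbone, expression is driven by the retrovirus and not by the cell's own locus, and there was 1 array per vector and time. The labels do not say whether the time points came from separate cultures, so all p-values measure only the spread between these arrays.

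Neutrophil maturation runs in steps. Enzymes of the primary (azurophil) granules are made first, proteins of the secondary and tertiary granules later, and receptors for bacterial products, complement and chemokines last. G-CSF acts through its receptor and mainly STAT3, whereas IL-3 acts through the common beta chain and STAT5 and keeps up MYC, ribosome production and division. C/EBP factors and GFI1 favour the granulocyte path, and GATA1, GATA2 and GFI1B favour the erythroid, megakaryocyte, mast cell and eosinophil paths.

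Values are log2 expression relative to the median of the same probe set over the 8 arrays, so 0 is the middle of a gene's own range and levels of different genes cannot be compared. A gene was called when the fitted difference over both vectors passed a false discovery rate of 0.05 in limma. Fitted differences, from 2 arrays per time point, are given with their standard error (SE). The SE rests on the spread over all 8 arrays, adjusted in limma toward the spread of other genes. Of 13048 genes tested, 389 (2.98%) were higher at 24 h than at 6 h and 329 (2.52%) were lower, together 5.5%. These shares are the background for the counts of list members called in this fit. In the same fit, 16.8% of genes were called between 6 h and IL-3 and 26.2% between 24 h and IL-3. All 718 genes called late moved the same way in both cultures. Disagreement between the cultures counts as spread in this fit, so calls favour such genes and their agreement is no separate replication. Under a stricter filter on dim genes, 1183 of 7618 genes (15.5%) were higher and 1336 (17.5%) lower, the background for every count given under that filter. The smallest adjusted p was 0.0182, and leaving out any 1 of the 8 arrays left 0 calls in limma; without adjustment, 2384 to 3294 genes then had p under 0.05. Over all genes tested the median late change was 0.

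By size, 367 genes (2.81%) were at least 2-fold higher at 24 h in each culture and 221 (1.69%) at least 2-fold lower. The late change of the 2 cultures correlated across genes with a Pearson r of 0.17 over all 13048, and of 0.67 over the 7618 that passed the stricter filter. Those points share arrays and genes are not independent replicates. Calls of at least 2-fold numbered 188 higher (1.44%) and 79 lower (0.605%). Of the 188, 72 (38.3%) had moved by under 0.5 between IL-3 and 6 h, 63 (33.5%) had already moved up by more, and 53 (28.2%) had first moved down. Of the 79, 37 (46.8%) had moved by under 0.5, 12 (15.2%) had already moved down, and 30 (38.0%) had first moved up. The 6 h arrays enter both differences, so these classes are a description.

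Secondary and tertiary granule genes had the highest median late change of the gene lists, 1.49 against 0 over all genes. Of 24 tested, 14 rose and 0 fell, against the 2.98% and 2.52% of all genes. Members of this and the other lists were chosen with earlier results of these data known. Such counts and medians therefore describe a list and are no independent test of it. Ngp, a granule protein related to the cathelicidins, was at -1.17, -1.22, -0.96 and 4.19 in IL-3 and at 2, 6 and 24 h in ASXL1-MT cells, and at -0.04, 0.04, 0.05 and 4.51 in mock cells. Both cultures were flat to 6 h and far above every earlier array at 24 h, a difference of 4.80 ± 0.26 or 27.9-fold (adjusted p = 0.025). Ifitm6, an interferon-induced transmembrane family member found in neutrophils, was at 2.72 and 2.68 at 24 h in ASXL1-MT and mock cells, against -0.47 and -0.60 at 6 h. It had dipped slightly before 6 h and then rose by 3.24 ± 0.12. Of the integrin chains of complement receptor 3, Itgam rose by 1.56 ± 0.12 and Itgb2 by 1.30 ± 0.17, after 6 h changes of -0.49 and -0.24.

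Other granule genes rose in both intervals. Lcn2, which withholds iron from bacteria by binding their siderophores, was at -1.23, -0.56, 0.50 and 3.23 in IL-3 and at 2, 6 and 24 h in ASXL1-MT cells, and at -0.69, -0.50, 1.04 and 3.51 in mock cells. Hp, haptoglobin, which binds free haemoglobin, was at -1.26, -1.11, 0.80 and 3.53 in ASXL1-MT cells and at -1.23, -0.80, 1.14 and 3.83 in mock cells. For both genes the late step was larger than the step before 6 h: Lcn2 rose by 2.60 ± 0.16 after 1.73, and Hp by 2.71 ± 0.12 after 2.21. Lrg1, a secreted leucine-rich glycoprotein, rose by 3.18 ± 0.24, the WAP-domain protein Wfdc21 by 3.30 ± 0.08, and the protease inhibitor Slpi by 1.54 ± 0.13. The peptidoglycan-binding protein Pglyrp1 rose by 1.53. Ltf, lactoferrin, was at 1.91 and 2.38 at 24 h, against -0.36 and -0.14 at 6 h, in ASXL1-MT and mock cells, and its difference of 2.40 ± 0.59 did not pass (adjusted p = 0.094). Camp, Mmp8 and Mmp9 lay below the filter on dim genes and were not tested.

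**Figure D1:**
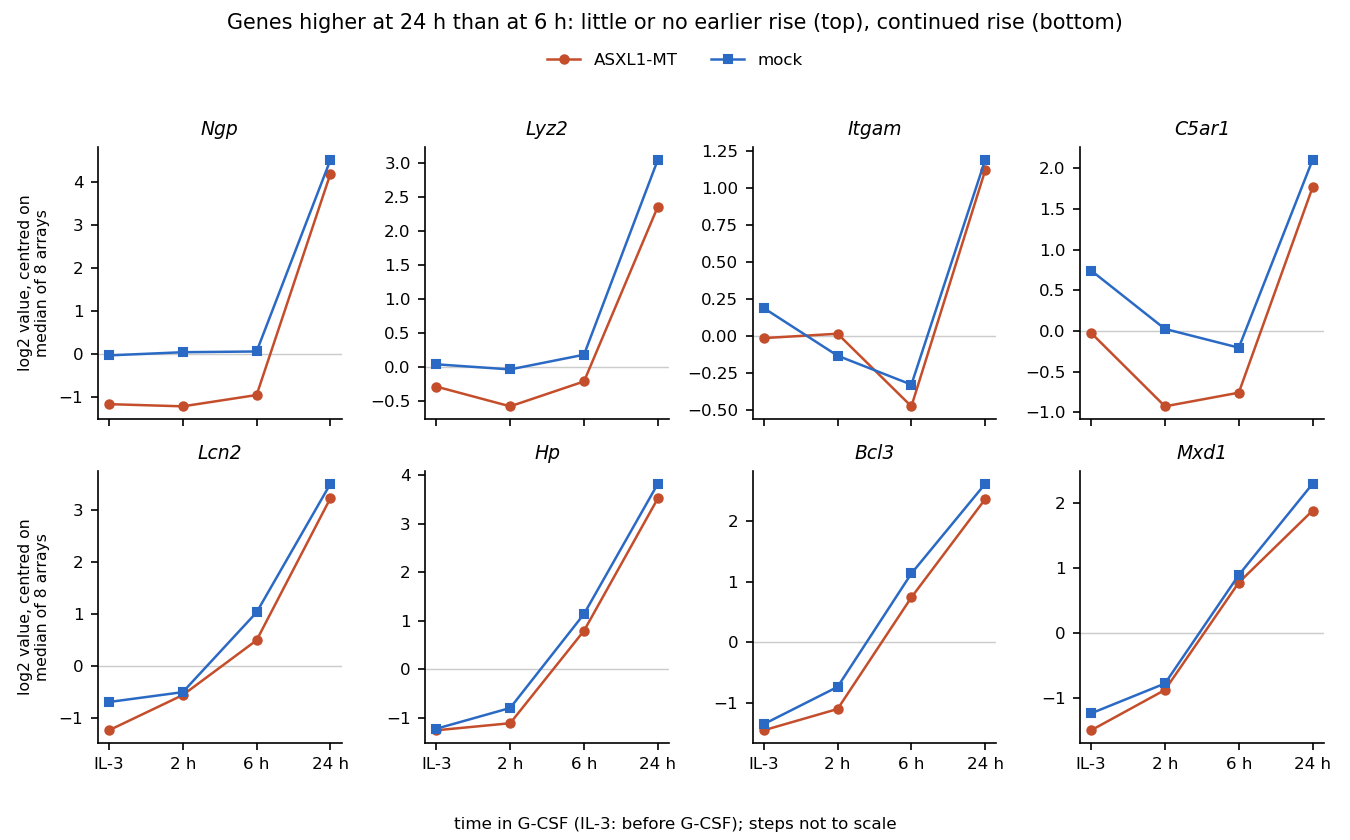
Centred log2 value (y axis) of 8 genes in IL-3 and at 2, 6 and 24 h of G-CSF (x axis), 1 array per point, ASXL1-MT cells as circles and mock cells as squares. In the top row the values changed little or fell before 6 h and the 24 h array stands highest in both cultures (Ngp at 4.19 and 4.51); in the bottom row they climbed in each later interval.

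The promoters of the called secondary and tertiary granule genes were searched because C/EBP factors are known to act on this gene group. Only those that held a match are shown. RefSeq (GRCm38.p6) gave a promoter for 11 of the 14. In the 250 bases before the start site, 4 of the 11 (36.4%) held the C/EBP core TTGCNNAA on either strand, against 9.6% of all 27025 promoters and 7.5% of the 10540 promoters of genes tested. The capitals mark each match, and each sequence runs 5′ to 3′ on the gene's strand. The regions are chr2:32387740-32387989 (minus strand) for Lcn2, chr9:110419558-110419807 (plus strand) for Ngp, chr2:164356508-164356757 (minus strand) for Slpi and chr19:20390672-20390921 (minus strand) for Anxa1.
Lcn2: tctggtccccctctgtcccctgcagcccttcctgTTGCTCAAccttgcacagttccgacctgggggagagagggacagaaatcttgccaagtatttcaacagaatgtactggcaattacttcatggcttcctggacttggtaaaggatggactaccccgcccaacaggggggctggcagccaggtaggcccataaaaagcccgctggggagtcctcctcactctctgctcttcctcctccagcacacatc
Ngp: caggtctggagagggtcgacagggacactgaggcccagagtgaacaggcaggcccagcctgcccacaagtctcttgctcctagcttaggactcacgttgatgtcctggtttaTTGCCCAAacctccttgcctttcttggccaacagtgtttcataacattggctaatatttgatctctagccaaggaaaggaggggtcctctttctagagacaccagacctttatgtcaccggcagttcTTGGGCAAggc
Slpi: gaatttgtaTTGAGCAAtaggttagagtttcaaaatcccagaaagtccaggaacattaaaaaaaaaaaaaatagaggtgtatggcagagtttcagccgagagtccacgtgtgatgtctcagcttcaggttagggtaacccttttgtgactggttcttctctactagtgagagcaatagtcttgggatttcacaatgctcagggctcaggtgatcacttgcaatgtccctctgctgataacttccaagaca
Anxa1: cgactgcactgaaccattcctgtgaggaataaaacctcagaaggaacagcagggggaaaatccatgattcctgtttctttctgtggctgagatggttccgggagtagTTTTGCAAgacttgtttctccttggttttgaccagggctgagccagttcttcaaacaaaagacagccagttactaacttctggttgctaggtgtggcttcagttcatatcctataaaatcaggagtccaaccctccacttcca
Ngp held 2 matches, 1 of them within the last bases before the start site, and the other 3 promoters held 1 each. Among genes at least 2-fold higher at 24 h, 19 of 150 promoters (12.7%) held the core, and among those at least 2-fold lower 5 of 66 (7.6%). A match is a run of letters and says nothing of binding in these cells.

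Among primary granule genes the late change was uneven. Of 15 tested, 5 rose and 0 fell, against 2.98% and 2.52% of all genes, with a median of 0.48. Lyz2, lysozyme, was at 2.36 and 3.04 at 24 h in ASXL1-MT and mock cells, against -0.21 and 0.18 at 6 h, and rose by 2.72 ± 0.12. Lyz1, its near-identical neighbour, rose by 3.16 ± 0.15. Elane, neutrophil elastase, was at 2.15 and 2.08 at 24 h, against 0.13 and 0.39 at 6 h, and rose by 1.85 ± 0.14. These 3 genes had moved by 0.11 to 0.41 between IL-3 and 6 h, so nearly all of their rise came late. Ms4a3, a membrane protein of granulocyte progenitors, rose by 1.14 and the lysosomal mannosidase Man2b1 by 0.92. In contrast, the late differences of Mpo (0.27 ± 0.09, adjusted p = 0.155), Prtn3 (0.53 ± 0.11, adjusted p = 0.074) and Ctsg (0.08 ± 0.08, adjusted p = 0.595), the enzymes that share the azurophil granule with elastase, did not pass. Probes for near-identical copies (Lyz1 and Lyz2, Ctla2a and Ctla2b, Akr1c12 and Akr1c13, and the Stfa family) may read each other's transcripts, and their separate values are uncertain.

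Surface receptors and signalling proteins of mature neutrophils formed the next large group. Of 45 tested, 22 rose and 1 fell, against 2.98% and 2.52% of all genes, with a median of 0.87. C5ar1, the receptor for complement fragment C5a, was at -0.03, -0.93, -0.76 and 1.77 in IL-3 and at 2, 6 and 24 h in ASXL1-MT cells, and at 0.74, 0.03, -0.21 and 2.10 in mock cells. In both cultures it was lower at 6 h than in IL-3 and highest at 24 h, a late rise of 2.42 ± 0.18. Ccr1, a chemokine receptor, was at 4.03 and 4.88 at 24 h in ASXL1-MT and mock cells, against -0.29 and 0.52 at 6 h, and rose by 4.34 ± 0.16 or 20.2-fold. Fcgr4, an activating receptor for IgG, rose by 2.71 ± 0.19, Clec5a, a lectin that signals through DAP12, by 3.48 ± 0.39, and Tyrobp, which encodes DAP12, by 1.91 ± 0.14. Clec5a stood lower in ASXL1-MT cells at both times (1.52 and -1.89) than in mock cells (3.67 and 0.12), and its late step was 3.41 in ASXL1-MT cells and 3.55 in mock cells. The paired receptors Pilra and Pilrb1, which share ligands, rose by 3.66 and 1.91, Tlr2 by 1.51 and Cd14 by 2.07. Csf3r, the G-CSF receptor itself, rose by 1.14 ± 0.10 after a rise of 1.02 by 6 h. The exception was C3ar1, the C3a receptor, which fell by 1.35.

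For the counts that follow, 2.98% of all genes rose and 2.52% fell. In the oxidase that produces superoxide, 3 of 6 subunits tested rose: Ncf4 by 1.37, Ncf1 by 0.98 ± 0.11 and Cyba by 0.66. Of 15 S100 proteins and annexins tested, 3 rose, S100a9 by 1.08 ± 0.14, Anxa1 by 0.98 ± 0.13 and Anxa2 by 0.73. Anxa1 differed by 1.89 over the mean of its probe sets. S100a8, the partner of S100a9 in calprotectin, was at 0.91 and 0.74 at 24 h in ASXL1-MT and mock cells, against -0.13 and 0.13 at 6 h, but its difference of 0.82 ± 0.14 did not pass (adjusted p = 0.057). Of 50 actin and motility genes, 6 rose and 1 fell, among them Gsn, the actin-severing protein gelsolin, by 1.36 (0.80 over its probe sets) and Lsp1, a leukocyte F-actin-binding protein, by 1.26. Of 41 lysosomal genes, 5 rose and 1 fell. The macrophage and granulocyte lysosome protein Cd68 rose by 1.33, the sialidase Neu1 by 0.95 and the granulin precursor Grn by 0.80, while the sphingomyelinase Smpd1 fell by 0.67. Under the stricter filter, 16 of 37 lysosomal genes rose, against 15.5% of all genes there. With probe set means, after a further quantile normalization, or without a filter on dim genes, 0 lysosomal genes rose.

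The 12 largest late rises among genes that passed the stricter filter on dim genes reached beyond the granule and receptor lists. Wfdc17, a small secreted WAP-domain protein, was at 6.76 and 7.46 at 24 h in ASXL1-MT and mock cells, against 0.79 and 0.06 at 6 h, and rose by 6.68 ± 0.38 or 102.5-fold, and by 4.74 on the log2 scale after a further quantile normalization. Tgm2, tissue transglutaminase, which crosslinks proteins, was at 3.85 and 3.87 at 24 h, against -0.74 and -1.01 at 6 h, and rose by 4.74 ± 0.14. Stfa2l1, of the stefin family of cysteine protease inhibitors, rose by 4.55 ± 0.25. Their changes between IL-3 and 6 h had been 0.61 for Wfdc17, -0.74 for Tgm2 and -0.48 for Stfa2l1. The other members of this set were Ngp, Ccr1, Il2ra, Prg2, Pilra, Ifitm6, Wfdc21, F10 (coagulation factor X, 3.19 ± 0.19) and 4933427D06Rik (3.96 ± 0.21, and 2.18 over the mean of its probe sets). Il2ra, the alpha chain of the IL-2 receptor and a known STAT5 target, was below its IL-3 value at 6 h and above it at 24 h. It was at -0.20, -0.04, -1.84 and 2.69 in IL-3 and at 2, 6 and 24 h in ASXL1-MT cells, and at 0.20, 0.04, -1.11 and 2.80 in mock cells. Its late rise was 4.22 ± 0.20.

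Of 28 targets of STAT3 and of G-CSF tested, 13 rose and 0 fell, against 2.98% and 2.52% of all genes. Their median was 0.87. Bcl3, an atypical IκB protein, was at -1.46, -1.11, 0.74 and 2.37 in IL-3 and at 2, 6 and 24 h in ASXL1-MT cells, and at -1.36, -0.74, 1.14 and 2.62 in mock cells. It climbed in every interval, with a late rise of 1.56 ± 0.11. Lbp, which binds lipopolysaccharide, rose by 3.04 ± 0.14 after 1.84. Pim1, a survival kinase, and Il4ra, the IL-4 receptor alpha chain, were different: Pim1 had changed by 0.01 at 6 h and rose late by 1.56 ± 0.12, and Il4ra had changed by -0.84 and rose late by 2.49 ± 0.09. Socs3, the feedback inhibitor of the G-CSF receptor, was at 2.40 and 2.57 at 24 h, against 0.31 and 0.92 at 6 h, in ASXL1-MT and mock cells, and its difference of 1.87 ± 0.31 did not pass (adjusted p = 0.052). Stat3 itself had risen by 1.69 at 6 h, with a late difference of 0.30 ± 0.09 that did not pass (adjusted p = 0.138).

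Among myeloid transcription factors, 10 of 54 rose and 4 fell, against 2.98% and 2.52% of all genes, and the median was 0.34. The granulocyte factors Cebpd (1.08 ± 0.10), Gfi1 (0.79 ± 0.10) and Cebpb (0.62 ± 0.09) rose, whereas Spi1, which encodes PU.1, had risen by 1.16 at 6 h and its late difference of 0.29 ± 0.12 did not pass (adjusted p = 0.217). For Cebpd the mean over all its probe sets was only 0.18. Mxd1, which competes with MYC for MAX, was at -1.50, -0.88, 0.78 and 1.89 in IL-3 and at 2, 6 and 24 h in ASXL1-MT cells, and at -1.24, -0.78, 0.90 and 2.30 in mock cells, a late rise of 1.26 ± 0.12. Fosl2, an AP-1 subunit, rose by 2.04 ± 0.31 (1.18 over the mean of its probe sets) after a change of -0.95 at 6 h.

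All 4 factors that fell belong to the other myeloid and erythroid paths. Gfi1b, the relative of GFI1 used in erythroid and megakaryocyte cells, was at -2.60 and -2.52 at 24 h in ASXL1-MT and mock cells, against -0.02 and -0.48 at 6 h, and fell by 2.31 ± 0.20. Gata2, a factor of progenitors and mast cells, was at 0.47, 0.07, 0.61 and -0.87 in IL-3 and at 2, 6 and 24 h in ASXL1-MT cells, and at 0.06, -0.53, -0.06 and -1.22 in mock cells. Its 24 h arrays were the lowest in both cultures, a late change of -1.32 ± 0.12. Gata1 and its cofactor Zfpm1 (FOG1) fell by 1.05 ± 0.10 and 1.05 ± 0.13. Gata1 had first risen, to 1.15 and 0.86 at 6 h in ASXL1-MT and mock cells, and at 24 h (0.00 and -0.10) it was back near its IL-3 values (0.00 and -0.27). Klf1, the erythroid Krüppel-like factor, was at -0.75 and -1.25 at 24 h, against 0.90 and 0.34 at 6 h, and fell by 1.62 ± 0.12.

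Markers of other blood lineages split. In the mast cell, basophil and eosinophil list, 4 of 16 tested fell and 2 rose, against 2.52% and 2.98% of all genes. The median of -0.42 became 0.06 over the mean of all probe sets and 0.75 under the stricter filter. The chymase Cma1 fell by 2.06 ± 0.24, the receptor-like Cd200r3 by 2.00 ± 0.17 and the IL-5 receptor chain Il5ra by 1.29 ± 0.18, and Gata2 was the other fall. Prg2, the eosinophil major basic protein, was at 5.31 and 4.72 at 24 h in ASXL1-MT and mock cells, against 0.94 and 1.17 at 6 h, and rose by 3.96 ± 0.47. Siglecf, an eosinophil lectin, rose by 1.15, and the eosinophil peroxidase Epx was at 2.67 and 1.30 at 24 h, against 0.59 and 0.04 at 6 h, with a difference of 1.67 ± 0.28 that did not pass (adjusted p = 0.055). The protease genes Mcpt8 (0.14 ± 0.10) and Cpa3 (0.34 ± 0.20) had small differences that did not pass.

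Erythroid genes gave 2 falls, Klf1 and Gata1, and 0 rises of 12 tested, against 2.52% and 2.98% of all genes. The megakaryocyte list gave 2 falls, Rab27b (-2.04 ± 0.20), a Rab protein of platelet granule release, and the integrin chain Itgb3 (-1.39 ± 0.08), and 1 rise, Vwf (2.11 ± 0.25), of 15. Of 23 markers of monocytes, macrophages and dendritic cells, Csf1r, the M-CSF receptor, rose by 1.56 ± 0.08 and Cd68 rose, and 0 fell. The lymphoid list (15 tested) and the fibroblast list (11 tested) had 0 calls in limma. At an unadjusted p under 0.05, 0 lymphoid and 3 fibroblast markers passed, those 3 all lower at 24 h. Of all 13048 genes tested, 3568 passed at that threshold in either direction. Under the stricter filter 3 of 5 fibroblast markers tested fell, where 17.5% of all genes did. Among 14 stem and progenitor genes Gata2 fell and 0 rose. On bulk RNA, a change in the number of cells of a type and a change in RNA per cell cannot be told apart.

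**Figure D2:**
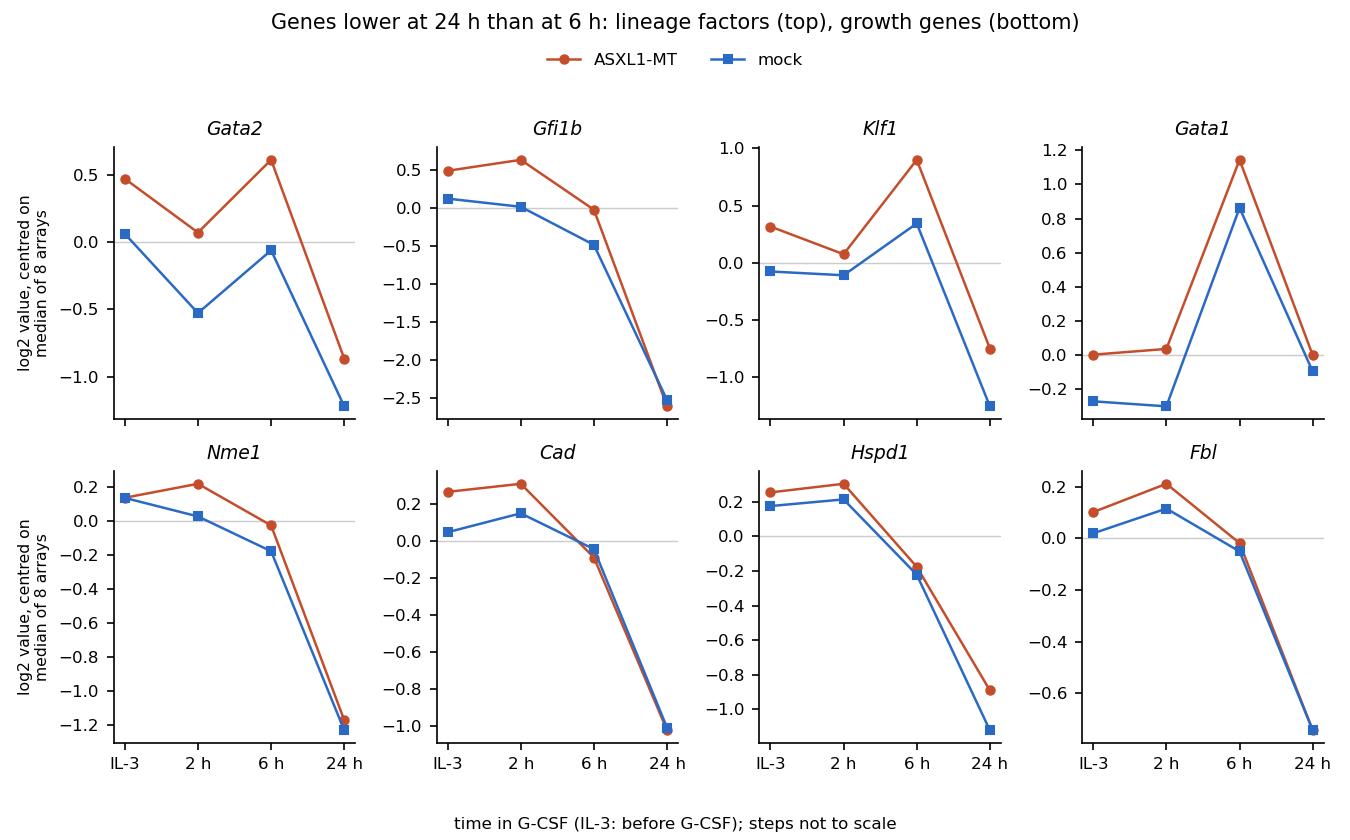
Centred log2 value (y axis) of 8 genes in IL-3 and at 2, 6 and 24 h of G-CSF (x axis), 1 array per point, ASXL1-MT cells as circles and mock cells as squares. The lineage factors of the top row and the growth genes of the bottom row were lower at 24 h than at 6 h in both cultures; Gata1 peaked at 6 h, and Nme1, Cad, Hspd1 and Fbl had changed by -0.10 to -0.41 by 6 h.

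Among the 12 largest late falls that passed the stricter filter, Dpp4, a membrane dipeptidase that trims chemokines, was at -4.17 and -4.60 at 24 h in ASXL1-MT and mock cells, against 3.20 and 1.97 at 6 h and -0.82 and 0.44 in IL-3. It swung up and then far below its start, a late change of -6.97 ± 0.67, and of -3.38 over the mean of its probe sets. Gimap4, a GTPase known from lymphocytes, was at -2.54 and -3.29 at 24 h, against 0.73 and 0.00 at 6 h, and fell by 3.29 ± 0.29. The aldo-keto reductases Akr1c12 and Akr1c13 fell by 2.00 ± 0.09 and 1.78 ± 0.12 after 6 h changes of -0.93 and -1.34. The rest were Gfi1b, Plxdc2 (-2.24, and -1.46 over its probe sets), Rab27b, Sla2 (-1.96), an adaptor that damps receptor signalling, Ctla2a (-1.88), Cd200r4 (-1.87), the adhesion protein Icam4 (-1.62), and the drug efflux pump gene Abcb1b (-1.56).

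**Figure D3:**
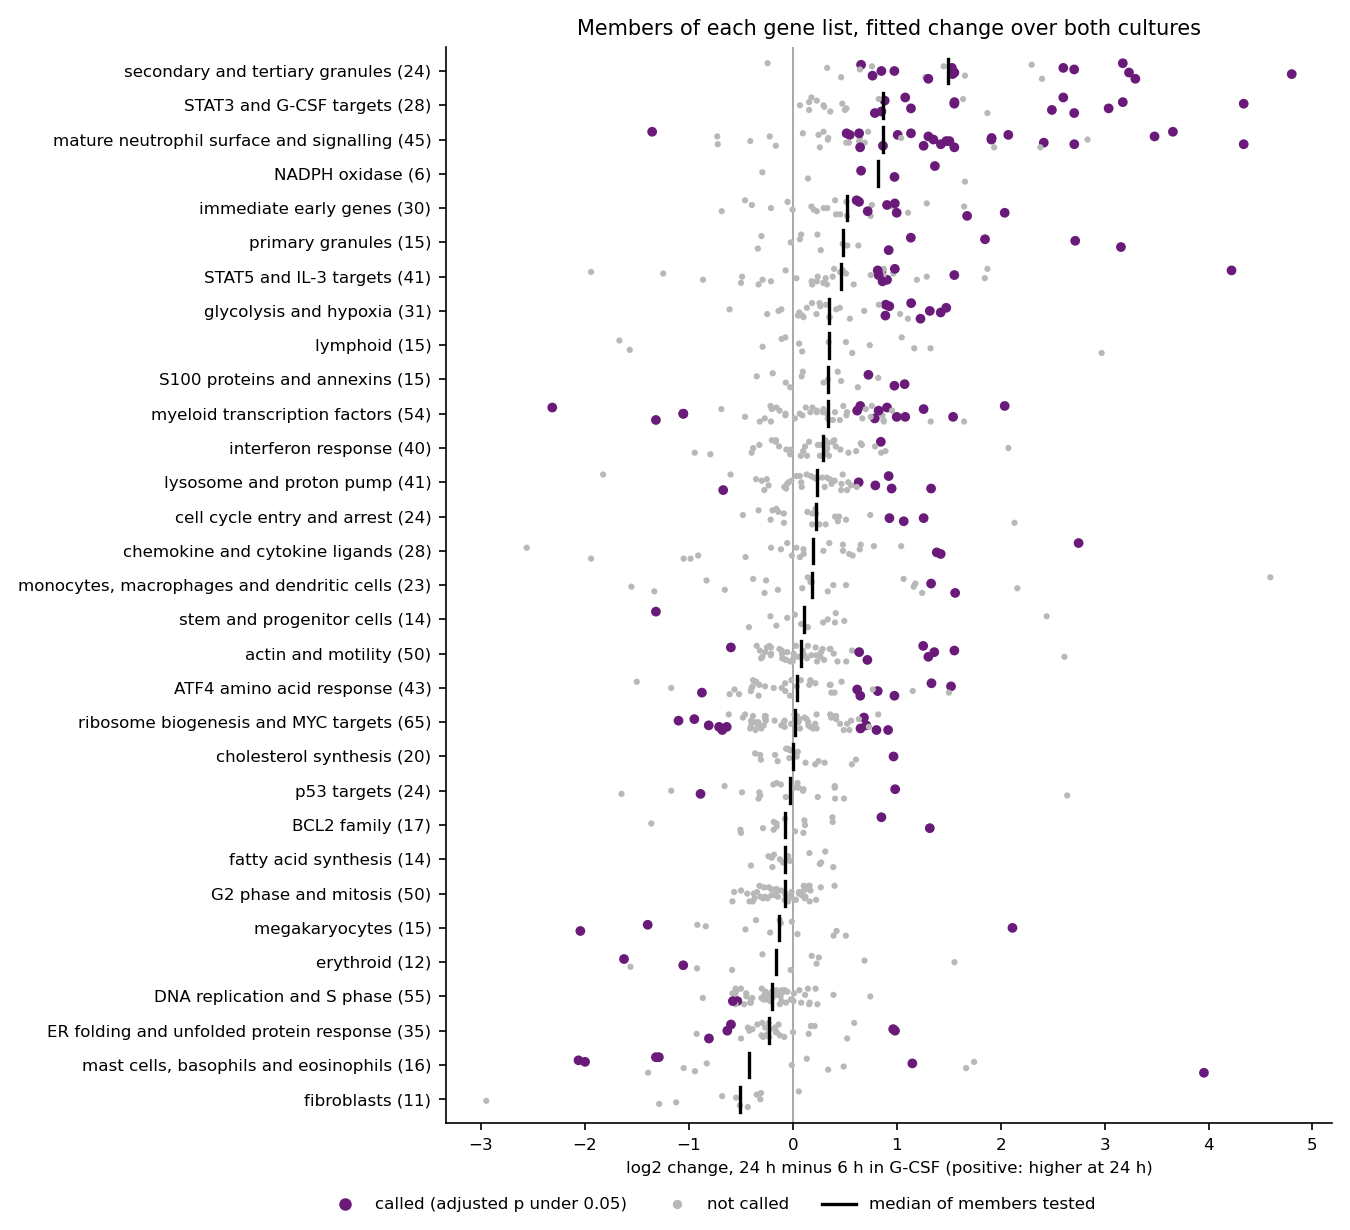
Fitted log2 change from 6 h to 24 h (x axis, positive for higher at 24 h) of each tested member of 31 gene lists (rows, members tested in brackets), called members as large purple points, others small and grey, with the median as a black tick. Secondary and tertiary granule genes have the highest median (1.49). The medians of the ribosome biogenesis and mitosis lists lie near 0 (0.02 and -0.07), and that of the DNA replication list at -0.20.

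Genes that had been displaced by 6 h then divided by direction. At 6 h, 401 genes (3.07%) were at least 2-fold lower than in IL-3 in both cultures and 559 (4.28%) at least 2-fold higher. Of the 401, 270 (67.3%) moved back in both cultures by 24 h, 44 moved further and 87 moved apart, and the median share of the displacement that was returned was 0.35. Of the 559, 240 (42.9%) moved back in both, 167 moved further and 152 moved apart, with a median share of 0.07. The share moving one way in both cultures was not counted over all genes. By the rule that the late change also be called, 59 of the 401 and 23 of the 559 returned. Over all genes tested, 2.98% were called higher late, the direction of the 59, and 2.52% lower, the direction of the 23. Of the 59, 35 came back in part (a share under 0.75), 17 in full (within 0.25 of a share of 1) and 7 passed their IL-3 value, and of the 23 these were 12, 8 and 3.

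Because the 6 h array enters both differences within a culture, an error in that array alone would look like a return. The genes were therefore also chosen in one culture and read in the other, which shares no array. Among the 7618 genes past the stricter filter, 315 were at least 2-fold lower at 6 h in ASXL1-MT cells, and in mock cells their median late change was 0.28 (quartiles -0.01 and 0.65), 233 of them (74.0%) moving up against 47.3% of all. The 320 chosen in mock cells had a median of 0.23 in ASXL1-MT cells (quartiles -0.06 and 0.59), 220 of them (68.8%) moving up against 47.5% of all. Of the genes that were higher at 6 h, the 353 chosen in ASXL1-MT cells had a median of 0.16 in mock cells, with 142 (40.2%) moving down against 52.7% of all, and the 346 chosen in mock cells a median of 0.12 in ASXL1-MT cells, with 146 (42.2%) moving down against 52.5%. Over all 13048 genes tested the same reading was weaker. Of the genes lower at 6 h, the 965 chosen in ASXL1-MT cells had a median of 0.24 in mock cells, with 62.7% moving up against 49.9% of all, and the 1091 chosen in mock cells a median of 0.10 in ASXL1-MT cells, with 54.4% against 48.7%. Of the genes higher at 6 h, 45.6% of the 1500 chosen in ASXL1-MT cells moved down in mock cells, with a median of 0.09, and 49.1% of the 1294 chosen in mock cells moved down in ASXL1-MT cells, with a median of 0.02. In each reading the median late change lay above 0 for genes that had been lower at 6 h, which is back toward IL-3, and also for genes that had been higher, which is further from it. These counts and medians describe the genes and carry no test.

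**Figure D4:**
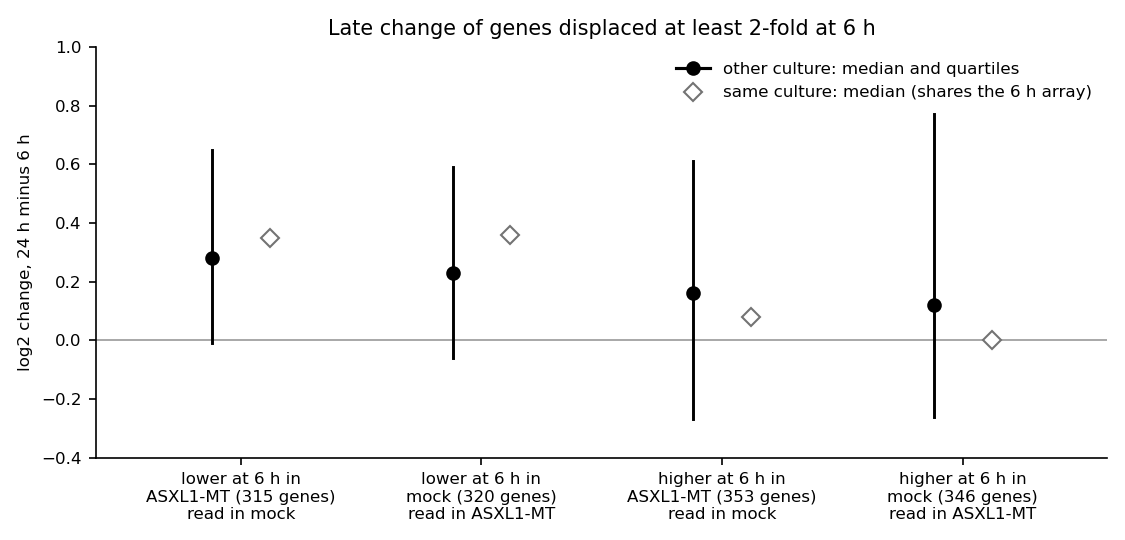
Late log2 change (y axis, 24 h minus 6 h) of genes past the stricter filter that were at least 2-fold lower or higher at 6 h than in IL-3 in 1 culture (x axis); black points and bars are the median and quartiles in the other culture, open diamonds the median in the same culture, which shares the 6 h array. Genes lower at 6 h moved up in the other culture (medians 0.28 and 0.23), and genes higher at 6 h also lay above 0 (0.16 and 0.12).

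Myc was among the genes that returned from below. It was at 0.85, -1.07, -0.32 and 0.54 in IL-3 and at 2, 6 and 24 h in ASXL1-MT cells, and at 0.69, -1.25, -0.64 and 0.32 in mock cells. Its low point was at 2 h, and the late rise of 0.91 ± 0.09 (adjusted p = 0.032) gave back 0.73 of the drop still present at 6 h. Bhlhe40, a circadian and immune repressor, was at 1.03, -0.63, -1.02 and 0.53 in ASXL1-MT cells and at 1.09, -0.53, -0.92 and 0.61 in mock cells. It rose late by 1.54 ± 0.07, and Ciart, another repressor of the circadian clock, by 1.54 ± 0.17, each giving back 0.76. Dusp6, the phosphatase that switches off ERK, rose by 0.86 ± 0.10 and gave back 0.48.

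In the ATF4 amino acid response, 6 of 43 genes rose late and 1 fell, against 2.98% and 2.52% of all genes. The median was 0.04. Atf4 itself was at 0.35, 0.28, -1.30 and -0.35 in IL-3 and at 2, 6 and 24 h in ASXL1-MT cells, and at 0.25, 0.17, -1.18 and -0.17 in mock cells. It stayed level to 2 h, was low at 6 h and had recovered 0.64 of that by 24 h, a late rise of 0.98 ± 0.12. The amino acid transporters Slc7a1 (1.33 ± 0.13) and Slc1a4 (1.52 ± 0.11) and the pseudokinase Trib3 (0.82 ± 0.11) returned by shares of 0.63, 0.78 and 0.60, although for Slc7a1 the mean of all probe sets was 0.67. Phgdh, the first enzyme of serine synthesis, went the other way, with a late change of -0.87 ± 0.10 after -0.20 at 6 h.

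Genes of the ribosome biogenesis and MYC target list, mostly lower at 6 h, moved both ways afterwards. Of 65 tested, 48 were called lower at 6 h than in IL-3 (7.17% of all genes), with a median of -0.99. Late, 5 rose and 6 fell, against 2.98% and 2.52% of all genes. The median late change was 0.02 and the median at 24 h against IL-3 was -1.07. The 5 that rose were all strongly low at 6 h and made a partial return: the spermidine synthase Srm rose by 0.81 ± 0.10 and gave back 0.30 of -2.67, the helicase Ddx21 rose by 0.71 ± 0.08, the assembly factor Rrs1 by 0.92 ± 0.12, Shmt1 of folate metabolism by 0.69 and Rrp1b by 0.65. Over the mean of their probe sets Ddx21 differed by only 0.06 and Shmt1 by 0.37. Nolc1, a nucleolar chaperone displaced by -1.81 at 6 h, differed late by 0.13 ± 0.09, which did not pass (adjusted p = 0.416).

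The 6 that fell had moved less by 6 h (-0.10 to -0.55) than the 5 that rose (-1.28 to -2.67). The 6 h arrays enter both differences, so choosing genes by their late change favours this contrast, which is a description. Nme1, a nucleoside diphosphate kinase, was at -1.17 and -1.23 at 24 h in ASXL1-MT and mock cells, against -0.03 and -0.18 at 6 h, and fell by 1.10 ± 0.09, with -1.66 over the mean of its probe sets. Cad, which starts pyrimidine synthesis, was at -1.02 and -1.01 at 24 h, against -0.09 and -0.05 at 6 h, and fell by 0.95 ± 0.11. The mitochondrial chaperonin Hspd1 (-0.81 ± 0.09), the nucleolar methyltransferase Fbl (-0.71 ± 0.08), Mthfd1 of folate metabolism (-0.68 ± 0.08) and the cytosolic chaperonin subunit Cct3 (-0.63 ± 0.08) fell as well, Cct3 by only 0.32 over the mean of its probe sets. Under the stricter filter 15 of the 65 rose and 18 fell, against 15.5% and 17.5% of all genes there.

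Targets of STAT5 and IL-3 had a median of -0.61 at 6 h against IL-3 and of 0.46 late. Late, 8 of 41 rose and 0 fell, against 2.98% and 2.52% of all genes. Of 15 members displaced downward at 6 h, 4 met the rule for a return: Myc, Dusp6, Trib3 and Il2ra. Of these Il2ra rose far past its IL-3 value. Cish, the classical STAT5 feedback gene, was at 0.00 and 0.45 at 24 h in ASXL1-MT and mock cells, against -0.55 and -0.18 at 6 h and 2.08 and 2.00 in IL-3, and its late difference of 0.59 ± 0.16 did not pass (adjusted p = 0.112). Angpt1, angiopoietin 1, was low at 6 h by 3.83 and differed late by -0.05 ± 0.22 (adjusted p = 0.907), with no measured return. Of 30 immediate early genes 8 rose and 0 fell, among them Zfp36l1, an mRNA decay factor, by 1.68 ± 0.14. Fos, up by 2.15 at 6 h, differed late by 0.23 ± 0.14, which did not pass (adjusted p = 0.382).

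Of 31 glycolysis and hypoxia genes tested, 8 rose late and 0 fell, against 2.98% and 2.52% of all genes, and the median was 0.35. Averaged over each gene's probe sets 3 rose, and without a filter on dim genes 0. The glucose transporter gene Slc2a3 was at 1.58 and 1.69 at 24 h in ASXL1-MT and mock cells, against 0.13 and 0.18 at 6 h, and rose by 1.48 ± 0.09. Slc2a1 rose by 1.23 ± 0.09, Vegfa by 1.42 ± 0.09, the mitophagy receptor Bnip3 by 1.32 ± 0.12, the kinase Pdk1, which turns pyruvate away from the mitochondrion, by 0.90, and the prolyl hydroxylase Egln3, itself induced by hypoxia, by 0.93. Hk2, hexokinase 2, was at 0.19, -0.33, -0.83 and 0.28 in IL-3 and at 2, 6 and 24 h in ASXL1-MT cells, and at 0.16, -0.16, -1.02 and 0.16 in mock cells. It returned in full, with a share of 1.04.

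In lipid synthesis, 1 of 20 cholesterol genes rose, where 2.98% of all genes did. It was Insig1, the sterol-regulated brake on SREBP, which rose by 0.97 ± 0.12 after -1.42. Cyp51, a sterol demethylase displaced by -1.66 at 6 h, differed late by -0.03 ± 0.16 (adjusted p = 0.922). The fatty acid list (14 tested) had 0 calls in limma and a median of -0.07, with 2 genes higher and 1 lower at an unadjusted p under 0.05. At that threshold 3568 of all 13048 genes tested passed in either direction. Of 35 endoplasmic reticulum folding genes, 2 rose (Atf6 and Dnajb9) and 3 fell (Creld2, Rpn1 and Edem1), against 2.98% and 2.52% of all genes. Over the mean of their probe sets Atf6 differed by 0.55 and Edem1 by -0.22. Of the list, 24 were lower and 9 higher at 24 h in both cultures, counts that were not made over all genes.

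The other genes with the largest 6 h drop that then returned were the p53 target Aen, the transcriptional regulator Ifrd1, Ccnb1ip1, Dctd (deoxycytidylate deaminase), the nucleoside transporter Slc29a1, Igsf8 and Lrp12. Their late rises lay between 0.71 for Lrp12 and 1.19 for Igsf8, and their shares between 0.38 and 0.56. Aen, for example, was at -0.51 and -0.43 at 24 h in ASXL1-MT and mock cells, against -1.39 and -1.52 at 6 h and 0.53 and 0.43 in IL-3, a late rise of 0.99 ± 0.10 and of 0.55 over the mean of its probe sets. Of the 59 genes that returned from below, 48 had a promoter in RefSeq and 4 (8.3%) held the E-box CACGTG bound by MYC and clock factors, against 8.1% of genes tested.

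The 12 returned genes with the largest 6 h rise that passed the stricter filter came from several pathways. Ulk1, the kinase that starts autophagy, was at -0.55, -0.18, 0.96 and 0.15 in IL-3 and at 2, 6 and 24 h in ASXL1-MT cells, and at -0.50, -0.04, 1.09 and 0.04 in mock cells. It peaked at 6 h and fell late by 0.93 ± 0.10. Sqstm1, the autophagy receptor p62, was at 0.31 and 0.08 at 24 h, against 1.03 and 0.98 at 6 h, and fell by 0.81 ± 0.10, with 0.30 over the mean of its probe sets in the same direction. Plin2, which coats lipid droplets, fell by 0.94 ± 0.09, Dgat1, the last enzyme of triglyceride synthesis, by 0.65 ± 0.09, and Slc27a4, a fatty acid transport protein, by 0.95 ± 0.14. Their shares returned were 0.74, 0.44 and 0.55, and Dgat1 changed by -0.35 over the mean of its probe sets.

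Fam117a was at -0.05 and -0.02 at 24 h in ASXL1-MT and mock cells, against 1.03 and 1.19 at 6 h and -0.29 and -0.38 in IL-3, a late change of -1.14 ± 0.09. Ldlrad4, an inhibitor of TGF-beta signalling, fell by 1.13 ± 0.09, Orai2, a store-operated calcium channel subunit, by 1.09 ± 0.12, and Ctla2b, a cysteine protease inhibitor, by 1.39 ± 0.10. The glycosyltransferase gene B3gnt5 and Insl6, an insulin-family peptide, fell by 0.71 ± 0.10 and 0.66 ± 0.09. The Gata1 and Dpp4 peaks described above belong to the same class, Gata1 with a full return (0.92) and Dpp4 far past its start (2.51).

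**Figure D5:**
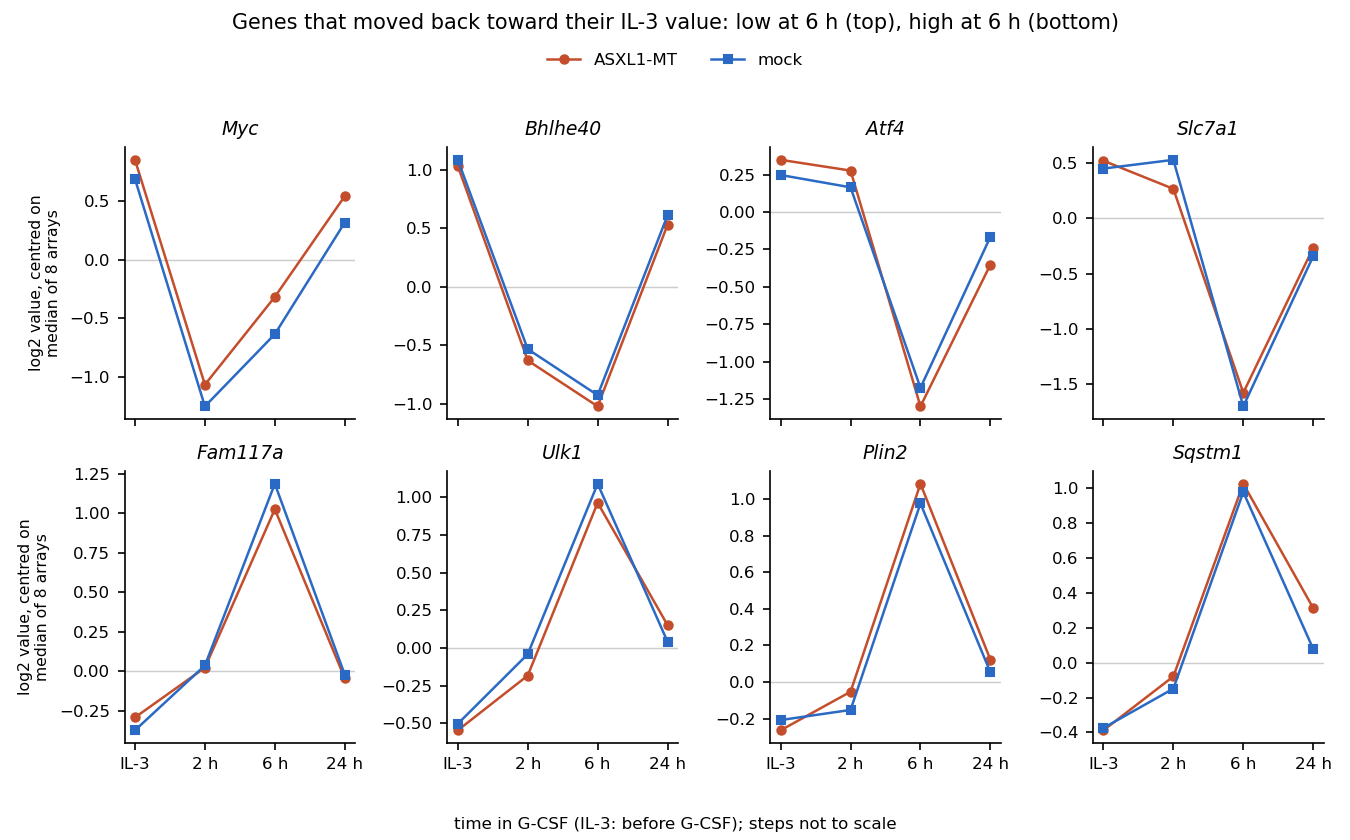
Centred log2 value (y axis) of 8 genes in IL-3 and at 2, 6 and 24 h of G-CSF (x axis), 1 array per point, ASXL1-MT cells as circles and mock cells as squares. Myc, Bhlhe40, Atf4 and Slc7a1 were lower at 6 h than in IL-3 and higher again at 24 h; Fam117a, Ulk1, Plin2 and Sqstm1 peaked at 6 h and lay lower at 24 h.

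Of 55 DNA replication genes, 2 fell (Lig1 by 0.58 and Mcm7 by 0.53) and 0 rose, against 2.52% and 2.98% of all genes, with a median of -0.20. In both cultures 38 were lower and 7 higher at 24 h, counts that were not made over all genes. Under the stricter filter 18 of the 55 fell and 1 rose, against 17.5% and 15.5% of all genes there. Of 50 genes of G2 phase and mitosis, 0 were called in limma and the median was -0.07. At an unadjusted p under 0.05, 12 were lower and 1 higher, where 3568 of all 13048 genes tested passed in either direction. Under the stricter filter 11 of the 50 fell, where 17.5% of all genes did. Of 24 genes of cell cycle entry and arrest, 3 rose: Cdkn2d, which encodes the inhibitor p19INK4d, by 0.93 ± 0.08, Cdk6 by 1.07, and Mxd1. The anti-apoptotic Mcl1 rose by 0.85 among 17 BCL2 family genes, of which 2 rose and 0 fell, and of 40 interferon response genes 1 rose (Nlrc5) and 0 fell, and under the stricter filter 12 of 23 rose and 1 fell, where 15.5% and 17.5% of all genes did.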

How the data were processed

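The authors deposited 1 table of log2 expression for 45037 probe sets on 8 Affymetrix arrays. MAS 5.0 is named for capturing intensities, per the labels, and RMA in the submitters' processing notes, with no version given. Base 2 was assumed, and a natural log would enlarge every fold. Each probe set's median over the arrays is 0 (largest deviation 5e-07), so levels were estimated from the rounding step of the stored numbers, a step chosen after seeing the data. Among 8000 simulated probe sets, 97.8% were rightly placed above or below the middle of the simulated levels. The median absolute error of the estimated level was 0.784 on the log2 scale. The middle of simulated levels is not a cut used here, so accuracy at the filters, and in choosing the brightest probe set, was not tested. Of the 45037 probe sets, 34945 carried 1 gene symbol. The brightest probe set stood for each of 18193 genes, and 13048 whose second-highest estimated value reached 6.22 were tested. The stricter filter was 8.55.

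limma 3.58.1 in R 4.3.3 fitted time and vector additively over 8 arrays (3 residual degrees of freedom, prior 1.13), two-sided, with Benjamini-Hochberg adjustment. In data simulated for 24 h minus 6 h over 13048 genes, of which 200 were changed, 68% of 4-fold and 0% of 2-fold changes were recovered. In the arrays 718 genes were called, some with changes under 2-fold, so the simulated shares do not carry over to them. The number of arrays limits the precision. Members and gene lists were chosen with earlier results of these data known. Genes named were members of 31 lists (794 of 995 genes tested), the 12 largest rises and falls, and the 12 returned genes with the largest 6 h change each way, under the stricter filter. Alternatives covered scaling, filters, probe set choice, prior, vector term and omitted arrays.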

Additional observations from a re-analysis of the deposited data

How the results depend on the processing

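All calls rest on the 8 arrays together: leaving out any 1 array (0 to 0 calls for rises and falls, with adjusted p at best 0.106 to 0.151, and 0 to 0 returned genes without a 2 h array, the only omissions that keep the return rule computable), both IL-3 arrays (0 rises, 0 falls) or both 2 h arrays (0 rises, 0 falls, 0 returned), or keeping only the 4 arrays at 24 h and 6 h (0 in each), ended them in limma. None of the 162 named genes that were called changed sign in any alternative, but many alternatives could not change a sign. The filters, the prior, the vector term and omitted IL-3 or 2 h arrays leave the fitted difference as it was. Only scaling, probe set means and omitted 6 h or 24 h arrays alter it. Named genes that did not pass were not followed. Against 389 rises and 329 falls, averaging a gene's probe sets gave 106 and 37, no filter on dim genes 21 and 5, a further quantile normalization 152 and 128, the stricter filter 1183 and 1336, a trended and robust prior 995 and 1164, and leaving out the vector term 634 falls. Centring each array gave 377 and 404. Genes that returned from below (59) and from above (23) numbered 14 and 7 with probe set means, 6 and 2 without a filter, 39 and 7 after quantile normalization, 108 and 43 under the stricter filter, 89 and 37 without the vector term, 103 and 65 with a 6 h change of at least 0.5, and 31 and 9 with at least 1.5; the trended and robust prior gave 111 from below. Of 162 named called genes, 158 stayed called after centring, 60 with probe set means, 15 without a filter, 87 after quantile normalization, 160 with the trended prior and 148 without the vector term, and all 151 that could be tested under the stricter filter. With probe set means and without a filter, rises numbered 9 and 4 among secondary and tertiary granule genes, 12 and 1 among mature neutrophil surface genes and 8 and 4 among STAT3 targets. They numbered 2 and 0 among myeloid transcription factors and 2 and 0 among immediate early genes. Among S100 proteins and annexins and among lysosomal genes they numbered 0 and 0. The cause of these shifts was not tested, except that fewer arrays leave fewer residual degrees of freedom. Calls of dim probe sets and of changes of 2-fold or less stay uncertain in this design. The array named in the design text and the probe sets of the table differ.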

Other observations

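Of 28 chemokine and cytokine ligands tested, 3 were higher at 24 h than at 6 h in limma and 0 lower. Of all genes 2.98% and 2.52% were. Ccl6, a chemokine made by myeloid cells, was at -0.86, -0.80, 0.03 and 3.01 in IL-3 and at 2, 6 and 24 h in ASXL1-MT cells, and at -0.31, -0.03, 0.83 and 3.35 in mock cells. It rose late by 2.75 ± 0.15 (adjusted p = 0.025). Tnfsf14, a TNF family ligand also called LIGHT, rose by 1.39, and the third was Vegfa. Of 24 p53 targets tested, Ccng1 fell by 0.89 (-0.57 over the mean of its probe sets) and Aen rose, with a median of -0.03.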
